A study of Mus musculus with 5 samples.

Results

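The proteasome genes of mouse liver invariant natural killer T (iNKT) cells are described here, in health and in carcinogen-induced hepatocellular carcinoma (HCC). The members are the protein-coding genes whose symbol starts with Psma, Psmb, Psmc, Psmd or Psme followed by a digit. The rule used names and no measured value, and it found 45 genes among the 55364 gene rows of the count tables. All 5 libraries came from wild-type mice. The 2 healthy libraries are from mice treated with PBS. The 3 HCC libraries are from male C57BL/6 mice that had received a single intraperitoneal injection of 25 mg/kg diethylnitrosamine (DEN), a liver carcinogen, at 15 days of age. The protocol, given alike for every library, puts sampling at 38 to 42 weeks of age. The cells had been sorted for staining with both anti-TCR beta and CD1d tetramers carrying PBS57, a lipid antigen of iNKT cells, and their RNA was counted at transcript 3′ ends.

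The proteasome is the protease that degrades proteins tagged with ubiquitin. Its barrel, the 20S core, is built of outer rings of alpha subunits (Psma genes) and inner rings of beta subunits (Psmb genes), and 3 of the beta subunits carry the active sites. A cap, the 19S particle, sits on the barrel and holds the ATPases that unfold substrates (Psmc genes) and further subunits (most Psmd genes). Some of the latter bind or remove ubiquitin. In lymphocytes and in cells exposed to interferon gamma, the inducible subunits Psmb8, Psmb9 and Psmb10 take the places of Psmb5, Psmb6 and Psmb7, and the ring of Psme1 and Psme2, called PA28, can replace the cap. This immunoproteasome is known for producing peptides for MHC class I molecules.

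Total counts were 1718452 to 2224356 per library. Levels are in CPM (a gene's count divided by the total of its table and scaled to 1000000). With 3 counts taken as the limit, a count of 0 allows a level of 1.35 to 1.75 CPM, for counting error only. In healthy 1, 3 was also the smallest count above 0 among the genes looked up, so its limit of 1.35 CPM may be too low. Values of single libraries are given in the order healthy 1, healthy 2 and then HCC 1, HCC 2, HCC 3. Markers of T cells were present in every library (Trac at 488 to 803 CPM, Il2rb at 649 to 1238 CPM), whereas Zbtb16, the defining transcription factor of iNKT cells, was at 0 to 1.65 CPM. Of the 9 T cell and iNKT markers, 7 varied by 1.57 to 2.83 times between libraries. Klrb1c, which encodes the surface receptor NK1.1, varied by 84.7 times and was at 382 and 5.49 CPM in the healthy pair against 465, 20.9 and 333 CPM with HCC. It was thus low in healthy 2 and HCC 2, a difference within both groups whose part in the proteasome values was not tested. Healthy 1 stood apart: across genes its Pearson r with the other libraries was 0.766 to 0.818, where the other pairs reached 0.853 to 0.905 (genes are not independent replicates). It held the fewest genes with a count, 10861 against 11822 to 13229 in the others, although its total was the largest. Its total is thus no measure of how deeply it was sequenced. HCC 2 and HCC 3 carry the same first number in their table names, and the design text counts 3 mice with HCC; whether these libraries share a mouse cannot be settled from the tables. The summed level of 12 hepatocyte markers was 48.6 and 59.8 CPM in the healthy pair against 63.7, 306 and 667 CPM with HCC, and that of 5 erythroid markers was 2975 and 2787 CPM against 7389.9, 17083 and 15384 CPM. Macrophage and neutrophil markers summed to at most 41.8 and 12.2 CPM in any library, B cell markers to 36 to 124 CPM and NK cell markers to 5.24 to 116 CPM, with Mpo, Ngp, Camp, Ncr1 and Klra4 at 0 in all libraries. The part of these other cell types in the values below was not tested. In sorted cells measured in bulk, fewer cells of a type and less RNA per cell cannot be told apart.

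Proteasome transcripts made up nearly the same share of the table totals in both groups. Pseudogene rows held 38.5% and 34.7% of these totals in the healthy pair against 34.9%, 31.7% and 36.5% with HCC. All 45 genes together were at 4596 and 4460.3 CPM in the healthy pair against 4432, 4530.2 and 5205 CPM with HCC. The excess of HCC 3 lay in 1 activator gene and its copy: without Psme2 and Psme2b the sums were 4233 and 4008 CPM in the healthy pair against 3932, 4165 and 3849 CPM with HCC. No proteasome gene passed the test of HCC against healthy libraries, in a comparison of 2 with 3 libraries whose 95% intervals reached, at the median member, 1.01 log2 units to either side of the estimate.

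Of the 45 genes, 42 passed the filter on low counts and were tested. Psma8, the alpha subunit of germ cells, and Psmb11, the catalytic subunit of the thymic cortex, had no count in any library. Psmc3ip, which matches the symbol rule but encodes a recombination factor and no subunit, was at 0 and 6.04 CPM in the healthy pair against 0.544, 4.66 and 0.531 CPM with HCC. Among the tested members edgeR's quasi-likelihood test made 0 calls in either direction (adjusted p below 0.05), as for all 8468 genes tested (0% in each direction). At an unadjusted p under 0.05 it gave 1 member, Psma3, against 3.63% of all genes tested (2.15% higher and 1.48% lower in HCC). DESeq2 also called 0 members, where 0.0945% of all genes were called higher and 0% lower, and gave 1 at an unadjusted p under 0.05 (4.2% of all genes). Limma-voom called 0 members and 0% of all genes, with 1 member at an unadjusted p under 0.05 (2.46%). Without a filter on low counts 0 of 43 members were called (0.174% of all genes higher, 0.144% lower), with 2 at an unadjusted p under 0.05 (4.03%). Without healthy 2 the test called 1 member, Psma3, where 1.05% of all genes were called higher and 0.964% lower, and 9 members were at an unadjusted p under 0.05 (21% of all genes), whereas without healthy 1 it called 0 members (0% of all genes) and 0 were at an unadjusted p under 0.05 (3.84%). With the replicate number as a term it called 0 members (0.0354% of all genes higher, 0% lower), with 0 at an unadjusted p under 0.05 (3.26%).

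The members' fitted log2 fold changes ran from -1.67 to 0.82 and 41 of 42 were within 1 log2 unit of 0. Their median was -0.09, beside 0.005 over all genes tested, of which 49.7% were fitted lower. The direction of the family depended on the scaling of the libraries. With the trimmed mean (TMM) factors 16 members were fitted higher in HCC and 26 lower. With library totals only 30 were higher and 12 lower, a scaling that moves the median of all genes by 0.160 log2 units. With TMM on protein-coding rows only, 14 were higher and 28 lower (median -0.16). Without Psme2 and Psme2b the log2 ratio of the summed levels was -0.25 with TMM and -0.05 with library totals. The levels given here are on the scale of library totals, whereas the fold changes and their standard errors (SE) are on the TMM scale, which raises healthy 1 relative to the others (factor 0.8295) and lowers HCC 2 (1.12).

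**Figure D1:**
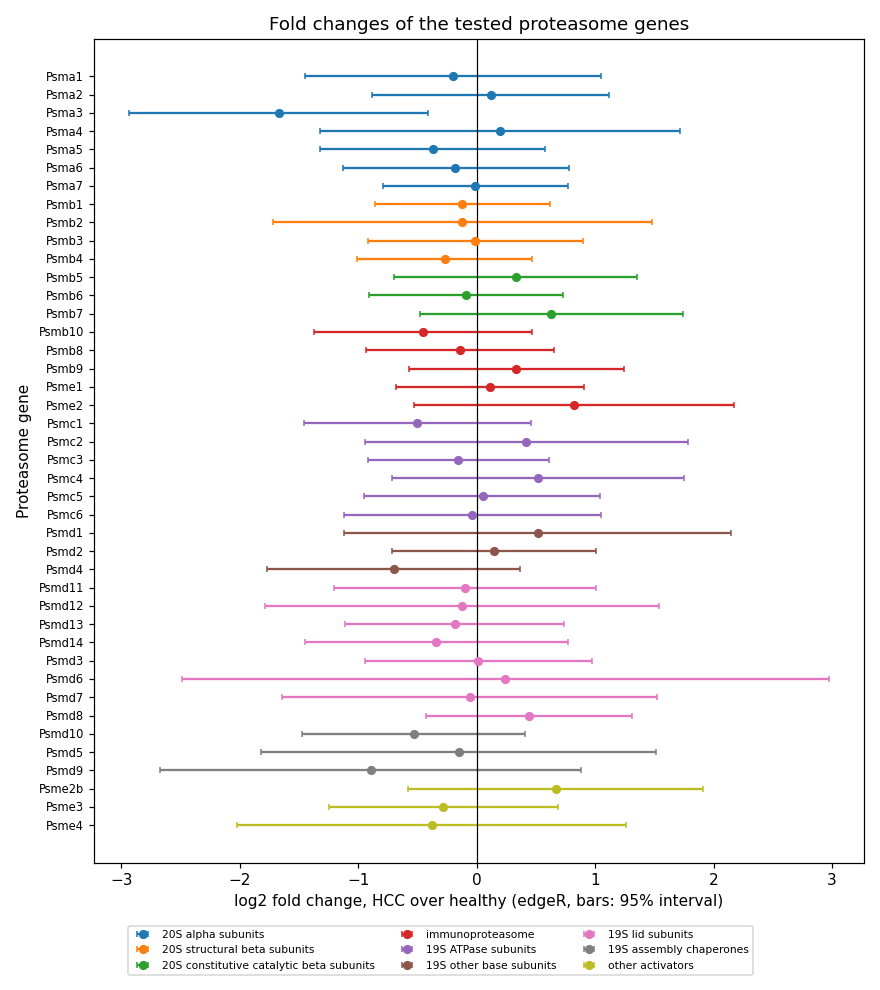
Log2 fold change of HCC over healthy libraries for each of the 42 tested proteasome genes (points, edgeR with TMM) with 95% intervals (bars), coloured by subgroup. The intervals of 41 genes span 0 and that of Psma3, from -2.93 to -0.41, does not, before any adjustment for the number of genes.

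Every HCC library exceeded both healthy ones for 2 of the 42 members, Psmb7 and Psmd8, against 12.8% of all genes tested. Every HCC library was below both healthy ones for 0 members, against 5.46%. On the TMM scale the same pair lay above (10.6% of all genes) and 2 members, Psmb4 and Psmc3, lay below (8.44%). Healthy 1 was the lowest library for 21 members (50% of the tested members, and 43.1% of all genes tested) and the highest for 8 (19%, and 18.8% of all genes), so that it was an extreme for 29 (69%, and 61.9% of all genes). The spread between libraries was wide for some subunits and narrow for others. The highest library exceeded the lowest by a median of 2.41 times over the 41 tested members with a count in every library, by 1.16 times in Psmb1 and by 10.6 times in Psmd9, and for 18 members by less than 2 times.

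**Figure D2:**
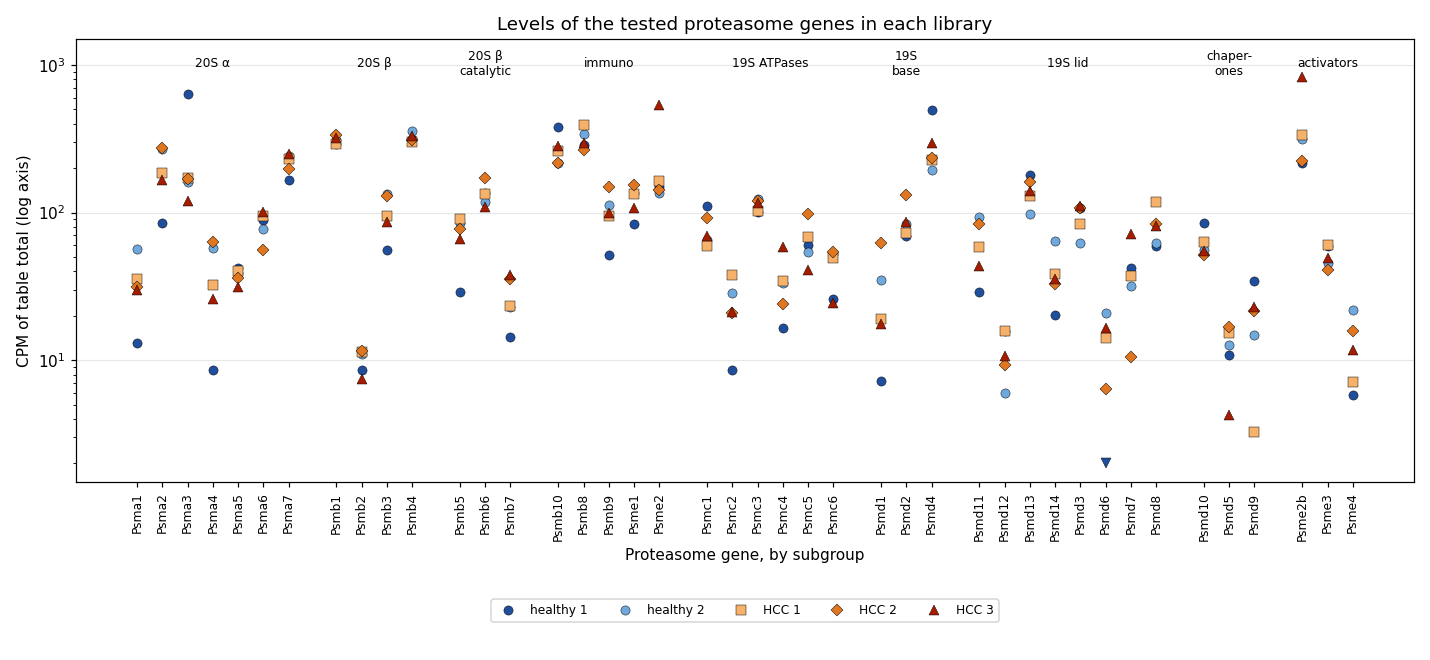
Level of each tested proteasome gene in the 5 libraries, in CPM of the table total on a log axis, with genes ordered by subgroup. Each symbol is 1 library, and the downward triangle near the axis marks the count of 0 of Psmd6 in healthy 1. Healthy 1 is the outlying point for genes such as Psma3 and Psma4, and HCC 3 for Psme2 and Psme2b.

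The inducible catalytic subunits were present at similar summed levels in all libraries, 715 and 667 CPM in the healthy pair against 749.9, 631 and 677 CPM with HCC. Psmb8 (beta 5i, the inducible chymotrypsin-like subunit, ENSMUSG00000024338, chromosome 17, 34197721 to 34201454, mm10) was at 286 and 339 CPM in the healthy pair against 393, 267 and 296 CPM with HCC. Healthy 1 and 2 both lay inside the range of the HCC libraries, and the log2 fold change was -0.14 (SE 0.35, 95% interval -0.93 to 0.65, edgeR), or 0.03 with library totals only. Psmb10 (beta 2i, the inducible trypsin-like subunit, chromosome 8, 105935735 to 105938444) was at 377 and 216 CPM against 262, 216 and 282 CPM. The HCC values lay between those of the healthy pair or level with healthy 2, and the log2 fold change (-0.45, SE 0.41) became 0.21 when healthy 1 was left out.

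Psmb9 (beta 1i, the inducible subunit of the beta 1 site, ENSMUSG00000096727, chromosome 17, 34181987 to 34187764) was at 51.3 and 113 CPM in the healthy pair against 94.7, 148 and 99.3 CPM with HCC. Healthy 2 was above 2 of the HCC libraries, and only healthy 1 was low. Its log2 fold change was 0.33 (SE 0.41, 95% interval -0.57 to 1.24), and -0.02 without healthy 1. In RefSeq, Psmb9 starts back to back with Tap1, with 225 bases between their starts. Tap1 encodes a chain of the peptide transporter of class I loading. In GENCODE's annotation the genes overlap, and these bases lie inside the span of Psmb9 given above. This stretch is shown because both genes start next to it in RefSeq and can be set side by side in the same libraries. It is RefSeq's sequence (GRCm38.p6, chr17:34187331-34187555, minus strand, 5′ to 3′ towards Psmb9), and the capitals mark a match to the CCAAT box.
Psmb9 and Tap1, between the starts: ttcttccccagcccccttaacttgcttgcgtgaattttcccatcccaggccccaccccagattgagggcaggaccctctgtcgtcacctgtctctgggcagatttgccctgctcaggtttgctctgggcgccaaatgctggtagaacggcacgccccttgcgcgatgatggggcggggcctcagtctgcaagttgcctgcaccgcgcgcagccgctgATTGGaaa

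Tap1 was at 165 and 119 CPM in the healthy pair against 125, 85.0 and 115 CPM with HCC. The libraries thus stood in the reverse order at both ends: healthy 1 was lowest for Psmb9 and highest for Tap1, and HCC 2 was highest for Psmb9 and lowest for Tap1. Tap1 had a log2 fold change of -0.60 (SE 0.40, unadjusted p = 0.164 in edgeR's fit across all genes). The genes overlap in GENCODE's annotation on opposite strands. Since the strand setting of the counting is not given in the sources used here, reads of the shared stretch cannot be assigned to either gene with certainty. That stretch lies where both genes start, away from the 3′ ends at which RNA was counted, and its part in the values was not tested. Psmb9 and Tap1 are set side by side here after their values were seen.

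Of the sequences around RefSeq starts of the inducible catalytic genes, that of Psmb8 held a match to the gamma-activated site. This is a kind of site known from interferon gamma responses, and the match is one of letters only. The 250 bases before the RefSeq start of Psmb8 (GRCm38.p6, chr17:34197945-34198194, plus strand) are shown with the match in capitals. They lie inside the span that GENCODE gives Psmb8.
Psmb8, before the start: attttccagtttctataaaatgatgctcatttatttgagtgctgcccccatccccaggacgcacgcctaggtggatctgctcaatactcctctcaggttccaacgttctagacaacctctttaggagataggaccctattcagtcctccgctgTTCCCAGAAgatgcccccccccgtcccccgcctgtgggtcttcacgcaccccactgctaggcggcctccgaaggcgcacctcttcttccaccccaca

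RefSeq windows of 300 bases (250 before to 50 after the start) were matched to 38 of the 45 genes, with 41 windows, and searched on both strands. The gamma-activated site (TTCNNNGAA) was in 2 of the 41 windows (4.88%), those of Psmb8 and Psmd2, and in 8.3% of all 32851 windows. The core of the interferon-stimulated response element (GAAA, any 2 bases, GAAA) was in 4 windows (9.76%, and 3.44% of all), those of Psme1, Psmb3, Psmd4 and Psmd9. The CCAAT box (CCAAT) was in 15 windows (36.6%, and 37.4% of all), and the core of the antioxidant response element (TGACNNNGC), which binds NRF factors that control proteasome genes, was in 6 (14.6%, and 12.4% of all). Overlap between matches of different motifs was not examined, and a match is a description of letters only.

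Of the constitutive catalytic subunits, Psmb5 (beta 5, chymotrypsin-like) was at 28.8 and 85.6 CPM in the healthy pair against 89.8, 76.8 and 65.8 CPM with HCC. Healthy 1 alone was low, and the log2 fold change (0.33, SE 0.46) became -0.17 when it was left out. Psmb6 (beta 1, caspase-like) was at 136 and 117 CPM against 133, 172 and 109 CPM, and the groups overlapped. Psmb7 (beta 2, trypsin-like, ENSMUSG00000026750, chromosome 2, 38588036 to 38644087) was at 14.4 and 23.1 CPM against 23.4, 35.5 and 37.7 CPM. All HCC libraries were above both healthy libraries, HCC 1 only just, and the log2 fold change of 0.63 (SE 0.50, 95% interval -0.48 to 1.74) did not pass (unadjusted p = 0.236, adjusted p = 0.9999 in edgeR). Of the 3′ words of Psmb7, 90% also occur in Nek6, which overlaps it on the opposite strand and was at 0 and 1.1 CPM against 1.63, 5.24 and 5.31 CPM.

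The balance of inducible to constitutive catalytic subunits was compared between libraries as a ratio of counts inside each library, which does not depend on the scaling. Because 3′ counts of different genes are not calibrated against each other, the ratio says nothing of the share of immunoproteasomes. Counts of Psmb8, Psmb9 and Psmb10 together were 3.98 and 2.96 times those of Psmb5, Psmb6 and Psmb7 in healthy 1 and 2, and 3.05, 2.22 and 3.19 times in HCC 1, 2 and 3. The mean log2 ratio was 1.78 ± 0.30 (SD, n = 2) in healthy and 1.48 ± 0.29 (SD, n = 3) in HCC libraries, a difference of -0.30 with overlapping groups. No p is given for a sum over members.

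The 3 pairs did not share a direction. The log2 ratio of Psmb8 to Psmb5 was 3.32 and 1.98 in healthy and 2.13, 1.79 and 2.17 in HCC libraries, and that of Psmb10 to Psmb7 was 4.71 and 3.23 against 3.48, 2.61 and 2.90. That of Psmb9 to Psmb6 was -1.41 and -0.06 against -0.49, -0.22 and -0.13. In each pair healthy 1 was the extreme library, highest for the first pairs and lowest for the last, while healthy 2 lay inside or next to the HCC libraries.

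**Figure D3:**
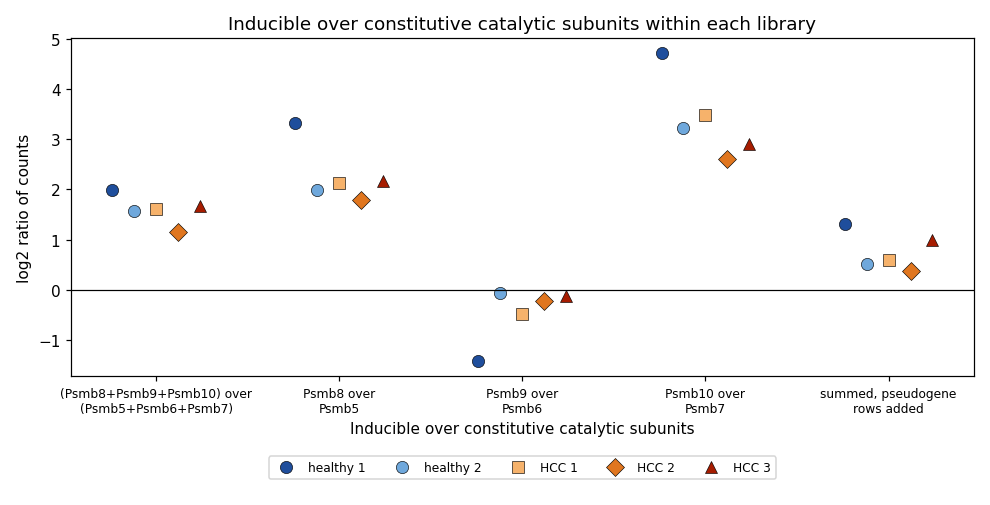
Log2 ratio of counts of inducible over constitutive catalytic subunits in each library, summed and for each pair, and for the sums with pseudogene rows added to their subunit. Healthy 1 is the extreme library in all 3 pairs, and the groups overlap in the summed ratio.

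Of the inducible genes other than Psmb8, Psmb9 and Psmb10, Psme1 (PA28 alpha, ENSMUSG00000022216, chromosome 14, 55578123 to 55581529) was at 83.6 and 135 CPM in the healthy pair against 134, 154 and 108 CPM with HCC. Healthy 2 and HCC 1 were level and the groups overlapped (log2 fold change 0.11, SE 0.36, edgeR). Psme2 (PA28 beta, ENSMUSG00000079197, chromosome 14, 55587441 to 55591113), its partner in the same ring, was at 148 and 136 CPM in the healthy pair against 164, 142 and 532 CPM with HCC. HCC 3 was 3.24 times the next library and the other 4 lay close together. The 95% interval (Clopper-Pearson, counting error only) of HCC 3 was 499.9 to 566 CPM from 1003 counts, and that of HCC 1 was 146 to 184 CPM. These intervals take each table count as a single read. The values of HCC 3 rise in steps that this does not match, so its interval may be too narrow.

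The fold change of Psme2 rested on that library. It was 0.82 on the log2 scale with all libraries (SE 0.60, 95% interval -0.53 to 2.17, adjusted p = 0.9999 in edgeR) and -0.11 without HCC 3. Psme1 counts per Psme2 count were 0.565 and 0.996 in healthy 1 and 2, 0.815 and 1.09 in HCC 1 and 2, and 0.202 in HCC 3. HCC 3 was not high for the other inducible genes: it reached 0.751 times the highest other library for Psmb8, 0.672 times for Psmb9, 0.747 times for Psmb10 and 0.699 times for Psme1. HCC 3 also held the highest sum of hepatocyte markers (667 CPM), whose part in the level of Psme2 was not tested.

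Psme2b (ENSMUSG00000078153, chromosome 11, 48945354 to 48946190), annotated as a protein-coding gene of a single exon, was at 215 and 317 CPM in the healthy pair against 336, 223 and 824 CPM with HCC. HCC 3 was again the high library, at 2.45 times the next. The rows of Psme2 and Psme2b may not be separate measurements, since how shared reads were assigned is not given. Their GENCODE transcripts were identical at 789 of 794 aligned bases (99.4%), and the last 221 bases of Psme2 held no mismatch to Psme2b, so reads from most of the 3′ end could have come from either. The window of 30 coding bases around the mismatch next to last from the end shows how alike they are. The capitals mark the base that differs, C16T counted from 1 at the 5′ end of the window, with Psme2 first (GRCm38, chr14:55588059-55588088, minus strand, and chr11:48945586-48945615, minus strand).
Psme2: ctcagaacgaggggaCgctgtagccaaggc
Psme2b: ctcagaacgaggggaTgctgtagccaaggc

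Summed, both rows were at 363 and 452 CPM in the healthy pair against 501, 365 and 1356 CPM with HCC. Tested as 1 gene the sum had a log2 fold change of 0.72 (unadjusted p = 0.23 in edgeR's fit across all genes).

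**Figure D4:**
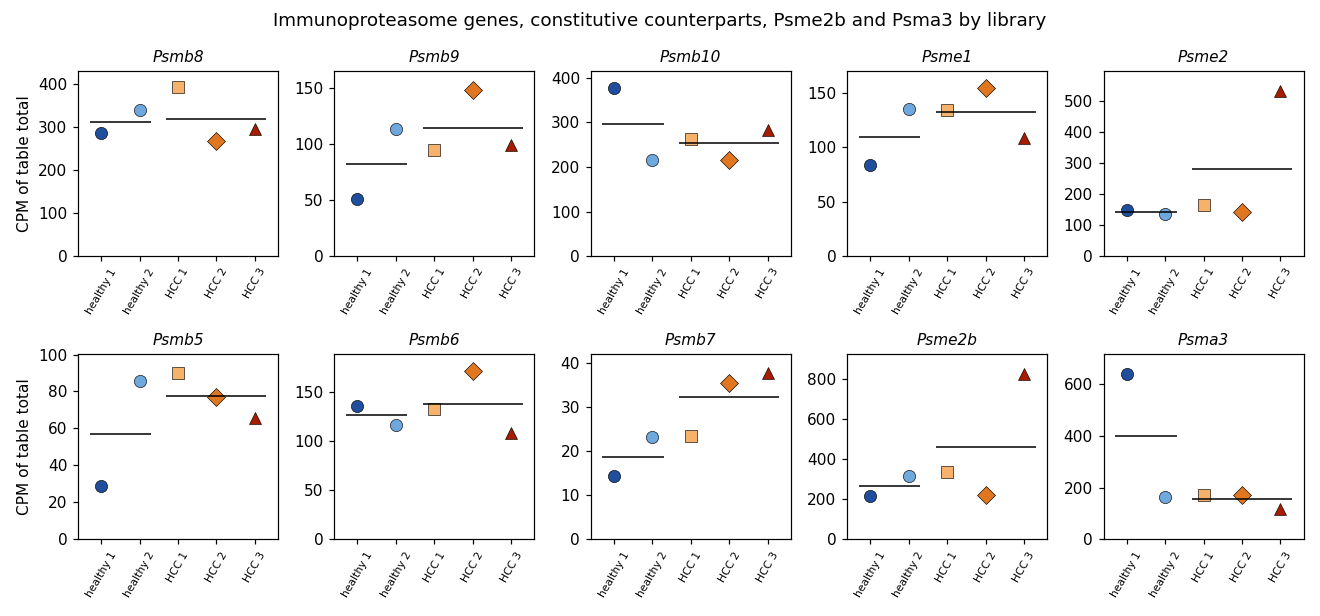
CPM of the table total in each library (symbols) with the group mean (lines) for the immunoproteasome genes (upper row), and for the constitutive counterparts, Psme2b and Psma3 (lower row). Vertical axes start at 0 and differ between panels. HCC 3 stands above the other libraries for Psme2 and Psme2b, and healthy 1 for Psma3.

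Of the other activators, Psme3 (PA28 gamma, the nuclear ring) was at 59.8 and 45.6 CPM in the healthy pair against 59.9, 40.7 and 49.4 CPM with HCC. Psme4 (PA200) was low throughout, at 5.84 to 22 CPM.

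The alpha ring held the member with the smallest p. Psma3 (alpha 7, ENSMUSG00000060073, chromosome 12, 70974621 to 70996347) was at 637 and 162 CPM in the healthy pair against 172, 169.9 and 119 CPM with HCC. Only healthy 1 was high, and healthy 2 lay between the HCC libraries. The log2 fold change was -1.67 (SE 0.56, unadjusted p = 0.0146, adjusted p = 0.9999 in edgeR). It was -0.11 without healthy 1 and passed without healthy 2 (-2.35, adjusted p = 0.0134), where the remaining healthy library is taken to vary as much as the HCC libraries do. Of the 31-base words in the last 300 bases of the coding transcripts of Psma3, 42.2% occur in other genes, and its 3 pseudogene rows were at 41.8 and 66.4 CPM in the healthy pair against 66.4, 68.7 and 71.1 CPM with HCC. The pseudogene rows were thus lowest where Psma3 was highest.

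The other alpha subunits did not follow Psma3. Psma5 was nearly even, at 41.8 and 39.0 CPM in the healthy pair against 40.3, 36.1 and 31.3 CPM with HCC (log2 fold change -0.37, SE 0.42). Without Psma3 the alpha subunits summed to 405 and 739 CPM in the healthy pair against 617, 656 and 605 CPM with HCC. Healthy 1 was thus the lowest library, where it was the highest with Psma3 included (1042 CPM against 723 to 901 CPM). Psma1 and Psma4, chosen for mention once their values were known, were at 13 and 8.54 CPM in healthy 1 against 29.7 to 56.5 CPM and 26 to 63.4 CPM in the other 4 libraries.

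Of the 4 structural beta subunits, Psmb1, Psmb4 and Psmb2 varied by 1.16, 1.19 and 1.57 times between the lowest and the highest library, and Psmb3 by 2.36 times. Psmb1 (beta 6) was at 290.0 and 312 CPM in the healthy pair against 291, 335 and 318 CPM with HCC. Psmb4 (beta 7) was at 313 and 358 CPM against 300.4, 312 and 331 CPM. Its groups overlapped on this scale and separated, with HCC lower, on the TMM scale (log2 fold change -0.27, SE 0.33). All 4 structural beta genes summed to 668 and 814 CPM in the healthy pair against 697, 789 and 743 CPM with HCC, and Psmb2, the lowest of them in these counts, was at 7.43 to 11.6 CPM.

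In the 19S particle, 8 of 20 tested genes were fitted higher and 12 lower (median log2 fold change -0.08). Its genes summed to 1480.0 and 1192 CPM in the healthy pair against 1249, 1420.5 and 1324 CPM with HCC. Among the ATPases of the base, Psmc1 (Rpt2) was at 111 and 64.8 CPM against 59.3, 91.4 and 69.0 CPM, and Psmc4 (Rpt3) at 16.6 and 33.5 CPM against 34.3, 23.9 and 58.4 CPM. The groups overlapped in both, with log2 fold changes of -0.50 (SE 0.43, and 0.14 without healthy 1) and 0.52 (SE 0.55, and 0.06 without HCC 3). Psmc3 (Rpt5), the ATPase with the highest mean level, was nearly even, at 100.3 and 123 CPM against 103, 119.9 and 116 CPM.

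Psmd4 (Rpn10, a receptor of ubiquitin chains, ENSMUSG00000005625, chromosome 3, 95032694 to 95042614) resembled Psma3 in that healthy 1 alone was high. It was at 498 and 194 CPM in the healthy pair against 228, 234 and 298 CPM with HCC, with healthy 2 below every HCC library. Its log2 fold change was -0.70 (SE 0.48) with all libraries and 0.36 without healthy 1, and no 3′ word of Psmd4 was shared with another gene. Psmd1 (Rpn2, the scaffold of the base) was at 7.19 and 35.1 CPM against 19, 62.3 and 17.5 CPM, with HCC 2 high and healthy 1 low, and 74.4% of its 3′ words occur in an overlapping gene model.

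Among the lid subunits Psmd8 (Rpn12, ENSMUSG00000030591, chromosome 7, 29174188 to 29180701) had groups that did not overlap. It was at 59.8 and 62.0 CPM in the healthy pair against 118, 83.2 and 81.2 CPM with HCC, a log2 fold change of 0.44 (SE 0.39, 95% interval -0.43 to 1.31, unadjusted p = 0.284 in edgeR's fit across all genes). The healthy pair lay close together (SD 1.58 CPM), and HCC 1 was the highest. Psmd14 (Rpn11, the enzyme that cuts ubiquitin chains from substrates) was at 20.2 and 63.7 CPM against 38.6, 32.6 and 35.6 CPM, so the HCC libraries lay between the healthy pair. Psmd13 (Rpn9) was at 179 and 97.7 CPM against 130.1, 161 and 141 CPM, again between them. Psmd6 (Rpn7), singled out after its values were seen, had no count in healthy 1 and was at 6.40 to 20.9 CPM in the other libraries. The limit given for a count of 0 in healthy 1, 1.35 CPM, may be too low.

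The 3 assembly chaperones of the base were all fitted lower in HCC libraries, and none passed. Psmd10 (gankyrin, also known as an oncoprotein of liver cancer) was at 84.5 and 56.0 CPM in the healthy pair against 63.1, 51.8 and 55.2 CPM with HCC (log2 fold change -0.53, SE 0.42, and -0.00 without healthy 1). Psmd9 (p27) was at 34.6 and 14.8 CPM against 3.27, 21.5 and 22.8 CPM, with HCC 1 low (-0.89, SE 0.79, and 0.06 without healthy 1). The subgroup summed to 129.9 and 83.4 CPM in the healthy pair against 81.6, 90.2 and 82.3 CPM with HCC, so healthy 2 was level with the HCC libraries.

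Several subunits share 3′ sequence with other gene rows, and from which gene the reads in such rows came was not tested. For 9 of the 45 genes, 50% or more of the 31-base words at the 3′ end were shared with other genes, mostly pseudogenes for Psmb5, Psma5, Psmb3 and Psmd2 and mostly protein-coding genes for Psmb7, Psmd1, Psmc3ip, Psme2 and Psme2b. For 21 genes no word was shared. Psmb5 shared 61.8% with the processed pseudogene Gm3375, whose row held more counts than Psmb5 itself, at 104 and 237 CPM in the healthy pair against 250, 203 and 127 CPM with HCC. With pseudogene rows added to their subunits the log2 ratio of inducible to constitutive catalytic subunits was 1.31 and 0.52 in healthy and 0.59, 0.37 and 0.99 in HCC libraries, and the difference between the groups was -0.27. Psma4 shared 37.8% with Gm6542, which was at 26.1 to 82.1 CPM. With these rows added, 0 members passed and 16 were fitted higher and 26 lower.

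Genes that assemble or regulate the proteasome but lie outside the symbol rule gave 0 called of 13 tested, 6 fitted higher and 7 lower (median log2 fold change -0.14). Pomp, the chaperone of the 20S core, was at 467 and 503 CPM in the healthy pair against 596, 387 and 418 CPM with HCC. Psmf1, an inhibitor of the core, was at 4.95 and 6.04 CPM against 9.80, 26.8 and 15.4 CPM (log2 fold change 1.45, SE 0.73, unadjusted p = 0.0766 in edgeR's fit across all genes). Psmg1, a chaperone of the alpha ring, was at 1.35 and 2.74 CPM against 4.35, 10.5 and 13.3 CPM (2.03, SE 1.09). Of the 13 genes, 3 were above the healthy pair in all HCC libraries (Psmf1, Psmg1 and Psmg4), against 12.8% of all genes tested. For Psmg1 the healthy values are near the limit that a count of 0 allows.

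Of 13 tested genes of ubiquitin, its shuttles and the unfoldase, 8 were fitted higher and 5 lower (median 0.06), with 0 called. Rps27a, which encodes ubiquitin fused to a ribosomal protein, was at 5654 and 8626 CPM against 6791, 6851 and 4948 CPM. Its groups overlapped on this scale and separated, with HCC lower, on the TMM scale (as for 8.44% of all genes tested). The log2 fold change was -0.37 (SE 0.33). Ufd1, a cofactor of the unfoldase Vcp, was at 67.0 and 18.7 CPM against 39.7, 15.1 and 35.6 CPM.

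Among 9 tested transcription factors of proteasome genes and the proteins that activate them, 6 were fitted higher and 3 lower (median 0.46), and 0 were called. Irf1, the interferon-induced factor that acts on the Psmb9 and Tap1 promoter, was at 36.9 and 125 CPM in the healthy pair against 204, 294 and 160.3 CPM with HCC. All HCC libraries were above both healthy libraries, as for 12.8% of all genes tested. In this list 2 of the 9 tested genes were above in this way and 1 was below. The log2 fold change of Irf1 was 1.32 (SE 0.49, unadjusted p = 0.0226, adjusted p = 0.9999 in edgeR). It was 0.76 without healthy 1 (adjusted p = 0.9988) and 2.26 without healthy 2, where it passed (adjusted p = 0.033). Nfe2l2 (NRF2), the factor of the antioxidant response, was at 1.35 and 7.68 CPM against 3.81, 34.3 and 11.1 CPM.

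Of 6 tested genes of peptide supply and class I loading, 2 were fitted higher and 4 lower (median -0.26). Tap2, the partner of Tap1 in the transporter, was at 22.5 and 96.1 CPM against 110.5, 133 and 99.8 CPM (log2 fold change 0.85, SE 0.51, and 0.22 without healthy 1). It was above both healthy libraries in all HCC libraries, as were 12.8% of all genes tested. It passed without healthy 2 (2.05, adjusted p = 0.0431 in edgeR). B2m, the light chain of class I molecules, was at 2355 and 2815 CPM against 3333, 3979.7 and 3728 CPM (0.33, SE 0.33). It too was above both healthy libraries in all HCC libraries, so that 2 of the 6 genes were, on both scales. Erap1, which trims peptides in the endoplasmic reticulum, was at 45.4 and 34.6 CPM against 21.8, 34.9 and 24.9 CPM (-0.78, SE 0.46). Its groups overlapped on this scale and separated, with HCC lower, on the TMM scale.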

How the data were processed

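The 5 tables hold a raw count for each Ensembl gene ID, deposited by the authors without normalization, 1 table per library of a QuantSeq 3′ kit for Ion Torrent, per the labels' protocols. The submitters' processing notes list, with no role for any, the aligners HISAT2 and Bowtie2, bcl2fastq, and the R packages limma, edgeR, DESeq2 and DESeq, with the build mm10. How reads were assigned to genes, by which annotation and on which strand, is not given in the sources used here. Symbols and positions came by gene ID from GENCODE M21 (GRCm38), which named 55104 of 55364 IDs.

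Levels are CPM of each table's total. Genes kept by filterByExpr (8468) were scaled with TMM and compared by the quasi-likelihood method of edgeR 4.0.16 in R 4.3.3, HCC against healthy, with Benjamini-Hochberg adjustment over all genes and a threshold of 0.05. SE values were derived from the F statistic. DESeq2 1.42.0 and limma-voom (limma 3.58.1) were alternatives, besides other scalings and filters, the replicate number as a block, each library left out, HCC 2 and 3 summed, and protein-coding rows only. Words of 31 bases in the last 300 bases of coding transcripts were matched to all GENCODE transcripts, and Psme2 was aligned with Biopython 1.88. The fit was also run on simulated counts as a self-test, and no result here rests on it. The design text counts separate mice, although whether HCC 2 and HCC 3 share a mouse was not settled. The p-values measure the spread between these libraries.

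Members and lists were chosen with earlier results of these data known. Genes given with every library's value were the immunoproteasome genes, Psmb5, Psmb6 and Psmb7, and in each other subgroup or list the 2 members with the smallest p and the 1 with the highest mean, and untested members are all named. A gene of the ubiquitin list that this rule names is not reported here. Adding pseudogene rows and summing Psme2 with Psme2b were chosen after seeing the data.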

Additional observations from a re-analysis of the deposited data

How the results depend on the processing

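The count of 0 proteasome genes called held under each alternative other than leaving out a library, where it ranged from 0 to 1 (Psma3, without healthy 2). For the pathway lists it was also 0 with all libraries and ranged from 0 to 2 (Irf1 and Tap2, without healthy 2). Over all genes 0 were called, with 53 under no filter on low counts, 8 with DESeq2, 3 with a replicate block, and 0 to 196 with each library left out. The replicate numbers are not known to pair mice, and number 3 exists in HCC only. Deviations of same-numbered libraries from their group means correlated at -3.57e-05 and 0.125, and those of healthy 1 with HCC 3 at 0.129. With 2 healthy libraries the deviations of one mirror those of the other, so these values cannot show whether the numbers pair mice. With the block, 0 proteasome genes were called and Psme2, Psme2b and Psmb6 had log2 fold changes of -0.11, -0.15 and 0.04, against 0.82, 0.67 and -0.09. The block leaves HCC 3 out of the comparison, since no healthy library has its number.

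With library totals only, the log2 fold changes of Psmb8, Psmb6, Psmb1, Psmc3 and Psmd13 were 0.03, 0.12, 0.07, 0.02 and 0.05, each negative with TMM. With TMM scaling in place of library totals, the log2 ratio of summed levels was -0.52 for alpha subunits, -0.17 for structural beta subunits, -0.09 for 19S ATPases and -0.02 for lid subunits, against -0.32, 0.00, 0.10 and 0.17, and 0.10 for lid subunits with totals of protein-coding rows. With each library left out, the summed ratio ranged from -0.13 to 0.15 for structural beta subunits, -0.58 to 0.29 for the other base subunits and -0.62 to 0.02 for assembly chaperones.

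With each library left out, log2 fold changes changed sign for 16 of the named genes. They ranged from -0.33 to 0.01 for Psmb8, -0.02 to 0.85 for Psmb9, -0.85 to 0.21 for Psmb10, -0.07 to 0.36 for Psme1, -0.11 to 1.17 for Psme2, -0.10 to 1.03 for Psme2b, -0.17 to 1.14 for Psmb5, -0.28 to 0.20 for Psmb6, -0.90 to 0.14 for Psmc1, -1.26 to 0.36 for Psmd4, -0.24 to 1.86 for Psmd1, -0.86 to 0.53 for Psmd14, -0.61 to 0.53 for Psmd13, -1.42 to 0.06 for Psmd9, -0.54 to 0.12 for Psme3 and -1.42 to 0.69 for Ufd1. The cause was not tested. The difference in the ratio of inducible to constitutive catalytic subunits (-0.30 on the log2 scale) was -0.52 to -0.09 with each library left out, and moved by less than the SD between replicates under each alternative run for it. Genes under about 10 CPM rest on few counts, and changes of the size of the intervals given would not be detectable.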
